A study of Mus musculus with 18 samples.

Results

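The measurement described here is how the difference between divided and undivided hair follicle bulge cells changed between 2 ages of the mouse. It was built from 12 of the 18 arrays of the series, which came from 6 mice. In each mouse, the log2 signal of bulge cells with 0 divisions was subtracted from that of bulge cells with 1 to 2 divisions, and this difference is called the division effect. The 3 division effects of mice killed at postnatal day 25 (PD25) were then set against the 3 of mice killed at PD21, gene by gene, for autosomal genes. A positive change means that the gene stood relatively higher in divided cells at PD25 than it did at PD21. The arrays of non-bulge cells were not used.

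All 6 mice were K5tTA x pTRE-H2B-GFP double transgenics from an FvB parent (K5tTA) and a CD1 parent (pTREH2B-GFP). In these mice the keratin 5 promoter, active in basal epithelial cells, drives a fluorescent histone that doxycycline shuts off. The PD21 mice ate doxycycline, at 1 g per kg of food, from PD18, and the PD25 mice from PD22. From then on each division diluted the fluorescence of a cell 2-fold, so the retained fluorescence told the number of divisions during the chase. Cells were sorted on surface CD34 and alpha6-integrin (bulge) and on retained fluorescence, which gave 4 groups of 3 arrays: undivided and divided bulge cells at each age. Every animal therefore carried both transgenes and had eaten doxycycline, and the age contrast lies between different mice while the division contrast lies within a mouse. The number of divisions refers to the chase alone, and the sources used here do not give the sex, litter or hair cycle phase of each mouse.

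The bulge is the part of the outer root sheath below the sebaceous gland where hair follicle stem cells rest through most of the hair cycle. When the follicle passes from rest to growth, Wnt signals activate and BMP signals hold back the stem cells and the hair germ beneath them. Transcription factors such as LHX2, SOX9, TCF7L1, NFATC1, RUNX1 and TBX1 are known regulators of these cells, and CD34 and LGR5 are widely used markers of them. IL33 is a cytokine of the interleukin 1 family that barrier epithelia keep in the nucleus and release on damage.

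Each array was scaled to a trimmed mean signal of 500, and median signals lay between 60.3 and 116.6. The signals of the bacterial hybridisation controls split the 12 arrays into 2 sets of 6, with mean log2 levels of 10.75 to 11.04 in one (set A) and 12.39 to 12.99 in the other (set B). Set A held PD21 mice 1 and 2 and PD25 mouse 1, and set B held PD21 mouse 3 and PD25 mice 2 and 3. Both arrays of a mouse always lay in 1 set, so no division effect mixes the sets. The ratio of the 3' to the 5' Gapdh control, a measure of transcript integrity, ranged from 3.10 to 11.6. It differed most within a mouse in PD21 mouse 3, with 3.21 in undivided and 9.67 in divided cells. Division effects spread unequally. Their SD over genes was 1.11, 1.04 and 0.889 in PD21 mice 1, 2 and 3, and 0.944, 0.543 and 0.697 in PD25 mice 1, 2 and 3. The SDs of the set A mice, 1.11, 1.04 and 0.944, were above those of the set B mice. Whether the set had a part in this was not tested. Levels below are log2(signal + 16) of the authors' signals, on which 4 is the floor, and p-values are limma values adjusted over all 10819 genes tested.

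The division effect changed between the ages for 487 of 10819 genes (4.5%). It was higher at PD25 for 361 genes (3.34%) and lower for 126 (1.16%), at an adjusted p below 0.05. Most of these genes had a large division effect at PD21 and a small one at PD25. The genes that moved up had a median division effect of -1.86 at PD21 and 0.15 at PD25, and the genes that moved down had medians of 1.46 and -0.26. The effect was larger in size at PD21 for 338 of the 361 and 107 of the 126, where 63.5% of all tested genes also had their larger effect at PD21. The sign was opposite in every mouse of the 2 ages for 85 and 39 of them, and for 5.48% of all tested genes. The 3 PD25 differences did not overlap the 3 PD21 differences for 358 and 124 of them, compared with 22.8% of all tested genes. The median change over all tested genes was -0.04, on arrays that the authors had scaled to 1 trimmed mean. Both the call rule and these counts use the same 6 differences, so nothing further is read from them.

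This count depends on how the spread is estimated. It was 191 when the arrays were compared without the mouse as a block, and 0 when the model did not let the spread follow the signal level (1798 genes at an unadjusted p below 0.05, against 1956 with the trend). It was 652 within set A and 107 within set B. Those fits hold 3 mice, with 1 PD25 mouse in set A and 1 PD21 mouse in set B, and assume that the lone mouse varies like the others, so they do not tell how stable the calls are. Leaving out PD21 mouse 1, PD21 mouse 2 or PD25 mouse 3 gave 221, 319 and 253. The direction of change was the same for each of the 487 genes in each of those fits, which says little about stability. Fits without the block or the trend keep the same change, and the others reuse part of the same differences. For the 358 higher and 124 lower genes whose PD25 and PD21 differences did not overlap, no subset of mice could turn the sign.

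**Figure D1:**
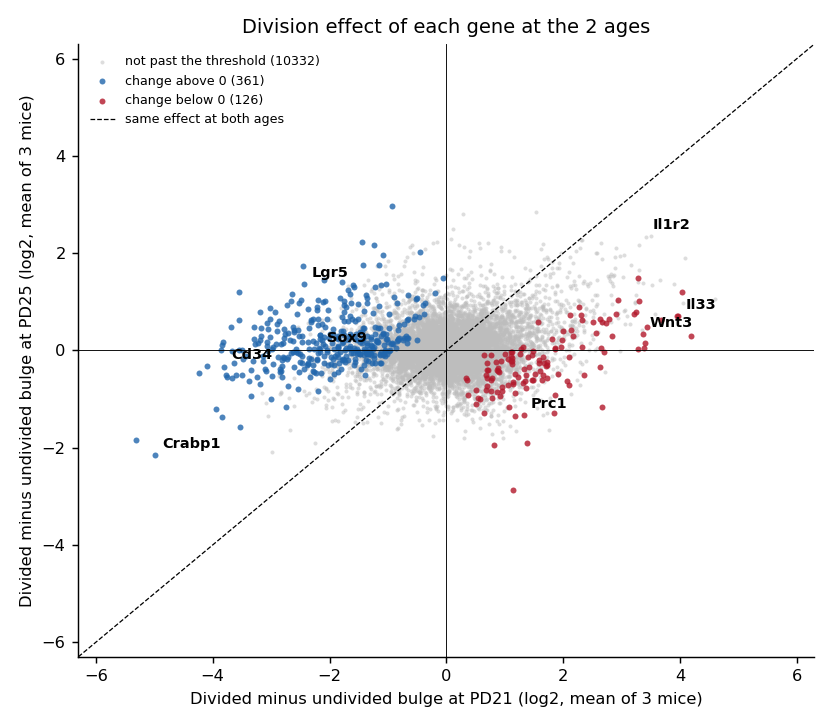
Division effect (log2 difference, divided minus undivided bulge cells, mean of 3 mice) of each tested gene at PD21 on the horizontal axis and at PD25 on the vertical axis, with genes whose effect changed in colour and the dashed line marking equal effects. Of the 487 coloured genes, 445 have the larger effect on the PD21 axis and 42 on the PD25 axis, and the median PD25 effects are 0.15 for the 361 higher and -0.26 for the 126 lower genes.

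The same change can be read as a difference between the ages in either sorted fraction. For 335 of the 361 higher genes and 82 of the 126 lower genes, the level differed more between the ages in divided cells than in undivided cells, as it did for 58.4% of all tested genes. The higher genes had a median age difference (PD25 minus PD21) of 1.84 in divided and -0.25 in undivided cells. For the lower genes the medians were -1.14 and 0.65. Such age differences lie between mice and also carry the hybridisation control set, while each division effect lies within a mouse and a set. The change of division effect between the ages still compares different mice, and the sets are spread unevenly over the ages. In sorted bulk samples, fewer cells of a type and less RNA per cell cannot be told apart.

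Cd34, which encodes the surface protein used to sort the bulge, had a lower level in 1 of the 4 groups. Its level was 13.12, 12.40 and 12.67 in undivided cells of PD21 mice 1 to 3 and 9.19, 7.91 and 9.68 in their divided cells. In the PD25 mice, undivided cells had levels of 12.50, 12.24 and 12.42 and divided cells had 11.74, 11.56 and 12.87. Divided cells of the PD21 mice stood below all 9 other arrays, and the other 3 groups overlapped one another. The division effect of Cd34 changed by 3.47 ± 0.38 (SE, adjusted p = 0.000281), with 3.45 within set A and 2.86 within set B. It passed with any 1 mouse left out, with an adjusted p of at most 0.00484. The divided PD21 fraction was sorted as CD34-positive but had the lowest transcript level of the marker, and whether cells of other types in that gate were part of this was not tested.

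Lgr5, a receptor for R-spondins that amplifies Wnt signals, reversed its sign. Its level in the PD21 mice was 7.87, 8.85 and 8.86 in undivided cells and 6.15, 5.27 and 6.85 in divided cells. In the PD25 mice it was 7.13, 7.46 and 8.13 in undivided cells and 8.69, 9.26 and 8.85 in divided cells. Divided cells thus had less Lgr5 signal than undivided cells in all 3 PD21 mice and more in all 3 PD25 mice. The change was 3.80 ± 0.65 (SE, adjusted p = 0.00298). It was 4.21 within set A and 3.28 within set B, values that rest on 1 mouse of one age and 2 of the other, and the highest adjusted p with 1 mouse left out was 0.0175.

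Il33 changed the other way. Divided cells of the PD21 mice had levels of 10.90, 10.76 and 10.99, well above their undivided cells at 7.03, 7.57 and 6.16. At PD25 the levels were 7.54, 7.77 and 6.37 in divided and 5.90, 7.48 and 6.20 in undivided cells. High Il33 signal was therefore found in 1 group of the 4, and its 3 arrays did not overlap the other 9. The change was -3.27 ± 0.64 (SE, adjusted p = 0.00722), with -1.89 within set A and -4.60 within set B. Without PD25 mouse 3 the adjusted p was 0.0502.

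**Figure D2:**
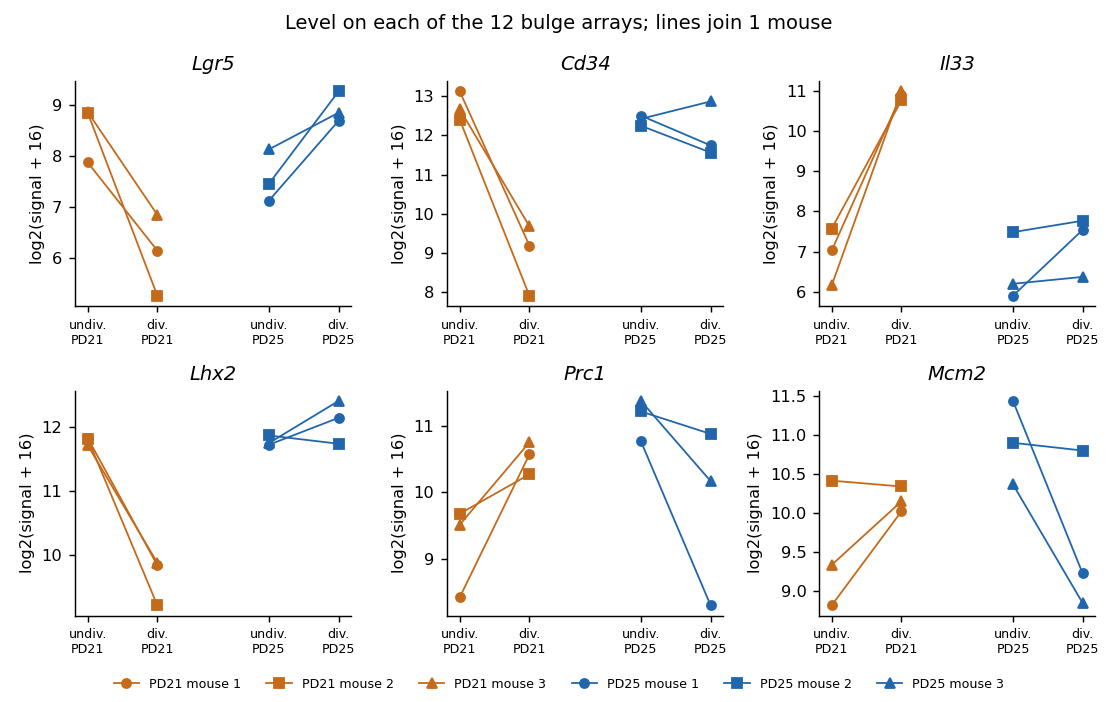
Level (log2(signal + 16)) of the genes named in each panel on every one of the 12 bulge arrays, with the 2 arrays of each mouse joined by a line and the mice of PD21 and PD25 side by side. Cd34 is lower in divided than in undivided cells of the 3 PD21 mice, Lgr5 lines slope down at PD21 and up at PD25, and Il33 rises to between 10.76 and 10.99 in the divided cells of the PD21 mice.

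Many bulge stem cell genes rose in division effect. Of 32 listed genes, all tested, 21 rose, 0 fell and 11 did not pass, against 3.34% of all genes that rose, and their median change was 1.76 against -0.04 for all genes. The median division effect of the 32 genes was -2.03 at PD21 and -0.04 at PD25. Averaged over the list, the division effect was -2.06, -2.37 and -1.46 in PD21 mice 1, 2 and 3 and -0.17, -0.33 and 0.03 in PD25 mice 1, 2 and 3. The list mean stood at 9.19 to 10.08 in divided PD21 cells and at 11.07 to 11.86 in the other 9 arrays. The list was assembled with earlier results of these arrays known and is not independent evidence of its direction. The 21 were 13 without the mouse block, 6 within set B, 21 within set A and 0 without the spread trend.

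Among the transcription factors of bulge cells, 4 of the 6 named above rose, against 3.34% of all tested genes. The 6 were picked by name, so this count is no further evidence beside that of the list. Lhx2, a LIM homeodomain factor that maintains the stem cells, had division effects of -2.0, -2.62 and -1.85 in the PD21 mice and 0.42, -0.13 and 0.66 in the PD25 mice, a change of 2.47 ± 0.30 (SE, adjusted p = 0.000386). Sox9, an HMG-box factor required to form and keep the bulge, had division effects of -2.24, -2.33 and -1.93 in the PD21 mice and -0.06, -0.22 and 0.33 in the PD25 mice, a change of 2.19 ± 0.23 (SE, adjusted p = 0.000281). In both genes divided cells were lower than undivided cells at PD21 in every mouse, and the PD25 values sat apart from the PD21 values. Runx1, a Runt-domain factor that promotes the start of growth, changed by 1.92 ± 0.28 (SE, adjusted p = 0.000883). Its 6 probe sets gave changes between 0.27 and 2.43. Tbx1, a T-box factor, changed by 2.59 ± 0.35 (SE, adjusted p = 0.000611). Tcf7l1, a repressor of Wnt targets, missed the threshold at 2.02 ± 0.56 (SE, adjusted p = 0.052), as did Nfatc1, a calcineurin-dependent factor linked to quiescence, at 1.03 ± 0.33 (SE, adjusted p = 0.0887).

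The other named bulge markers were mixed. Krt15, a keratin of the bulge outer root sheath, had division effects of -0.33 at PD21 and 0.08 at PD25 and a change of 0.41 ± 0.16 (SE, adjusted p = 0.189). Itga6, the integrin alpha6 used in the sort, had levels of 13.27, 13.30 and 12.80 and 13.14, 13.34 and 12.80 in undivided and divided PD21 cells. At PD25 they were 13.29, 12.94 and 12.35 and 13.27, 12.82 and 12.83, and the change was 0.14 ± 0.21 (SE, adjusted p = 0.787). Fgf18, Bmp6 and Ntn4, secreted factors made in the bulge, had changes of 1.48 (adjusted p = 0.489), 1.62 (adjusted p = 0.203) and 1.20 (adjusted p = 0.095). Igfbp5, which binds insulin-like growth factors, changed by 3.49 ± 0.73 (SE, adjusted p = 0.0105). Crabp1, a retinoic acid binding protein, changed by 2.84 ± 0.74 (SE, adjusted p = 0.0379), with division effects of -5.71, -6.48 and -2.80 in the PD21 mice and -3.04, -1.90 and -1.52 in the PD25 mice, so that PD25 mouse 1 lay below PD21 mouse 3. Igfbp5 lost its call without PD21 mouse 1 or PD25 mouse 3 (adjusted p up to 0.0665), and Crabp1 without PD21 mouse 1 or 2 or PD25 mouse 2 or 3 (up to 0.168).

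In the Wnt pathway, 10 of 35 tested members rose and 2 fell, against 3.34% of all tested genes that rose and 1.16% that fell, with a median change of 0.75. The receptor Fzd2 changed by 2.95 ± 0.30 (SE, adjusted p = 0.000281), with division effects of -2.76, -3.01 and -1.85 in the PD21 mice and 0.39, -0.04 and 0.89 in the PD25 mice. The secreted modulators Dkk3 and Sfrp1 changed by 2.75 ± 0.39 (SE, adjusted p = 0.000731) and 2.62 ± 0.34 (SE, adjusted p = 0.000478). Dkk3 levels in divided cells were 10.07, 9.22 and 11.63 at PD21 and 13.40, 12.90 and 13.30 at PD25, and those in undivided cells were 13.51, 12.81 and 13.23 and 13.52, 13.29 and 13.18. The ligand genes Wnt3 and Wnt4 fell, Wnt4 (-1.96) named after its value was seen. The division effects of Wnt3 were 3.54, 2.90 and 3.64 in the PD21 mice and -0.05, 0.94 and 0.10 in the PD25 mice, a change of -3.03 ± 0.69 (SE, adjusted p = 0.0174), and its call was lost without PD21 mouse 1, PD21 mouse 3 or PD25 mouse 3 (adjusted p up to 0.0829). Lrp4, a receptor for sclerostin-type Wnt inhibitors, had a change of -0.31 (adjusted p = 0.723) and did not pass.

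In the BMP and TGF-beta pathway, 10 of 35 tested members rose and 1 fell, with a median change of 0.73, against 3.34% of all tested genes that rose and 1.16% that fell. Ltbp2, a latent TGF-beta binding protein of the matrix, changed by 3.31 ± 0.69 (SE, adjusted p = 0.0104). The BMP antagonist Grem1 and the activin subunit gene Inhbb changed by 2.40 (adjusted p = 0.00482) and 2.43 (adjusted p = 0.00176). The member that fell was Bmpr1b, a type I BMP receptor, with division effects of 1.81, 2.48 and 2.79 in the PD21 mice and -1.53, -0.28 and 0.29 in the PD25 mice and a change of -2.87 ± 0.79 (SE, adjusted p = 0.0498). That call was lost whichever mouse was left out (adjusted p up to 0.151), and that of Ltbp2 without PD21 mouse 1 or 2 or PD25 mouse 3 (up to 0.0698). Bmp4, a ligand, had a change of -2.18 (adjusted p = 0.153) and did not pass. Among Hedgehog genes 3 of 10 rose, against 3.34% of all genes: the co-receptors Boc (1.38) and Gas1 (1.33) and the transcription factor Gli3 (1.38). Boc and Gli3 each passed in 1 of the 6 fits that leave out 1 mouse (adjusted p up to 0.192 and 0.166). Among FGF pathway genes 2 of 16 rose, against 3.34% of all genes: the ligand gene Fgf1 (2.73) and the receptor gene Fgfr1 (2.35). In the Notch list 1 of 13 rose, Lfng (1.32), a glycosyltransferase that modifies Notch, and in the EGF list 1 of 12, Egfr (0.98), and 1 call in a list of that size is read as no result beside the 3.34% of all genes. With 1 mouse left out, Lfng passed in 2 and Egfr in 1 of 6 fits (adjusted p up to 0.165 and 0.151).

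Genes of the hair germ and matrix, the structure that starts the new hair, gave 4 of 11 that rose, against 3.34% of all genes: Lgr5, Trps1 (3.02), Hoxc13 (2.47) and Dlx2 (2.30). TRPS1, HOXC13 and DLX2 are transcription factors of hair and ectodermal organs. Genes of the extracellular matrix and adhesion gave 9 of 34 that rose and 0 that fell, against the same 3.34% and 1.16%, with a median change of 0.66. They included the collagen IV chain gene Col4a4 (3.04), the proteoglycan gene Cspg4 (2.98), the integrin gene Itgb6 (2.39) and the laminin gene Lamb1 (2.34). The probe sets of Lamb1 gave changes from 0.83 to 2.64. Cspg4 and Lamb1 had opposite signs in every mouse of the 2 ages, with division effects of -3.41, -2.63 and -1.78 in the PD21 mice and 0.25, 0.25 and 0.61 in the PD25 mice for Cspg4. In the isthmus and infundibulum list, the BMP and Wnt antagonist Sostdc1 (0.92) and the keratin Krt6a (3.26) rose, 2 of 13 against 3.34%. Sostdc1 passed in 3 of 6 fits with 1 mouse left out (adjusted p up to 0.0716). Krt6a has near-identical family copies that its probe set may also bind.

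**Figure D3:**
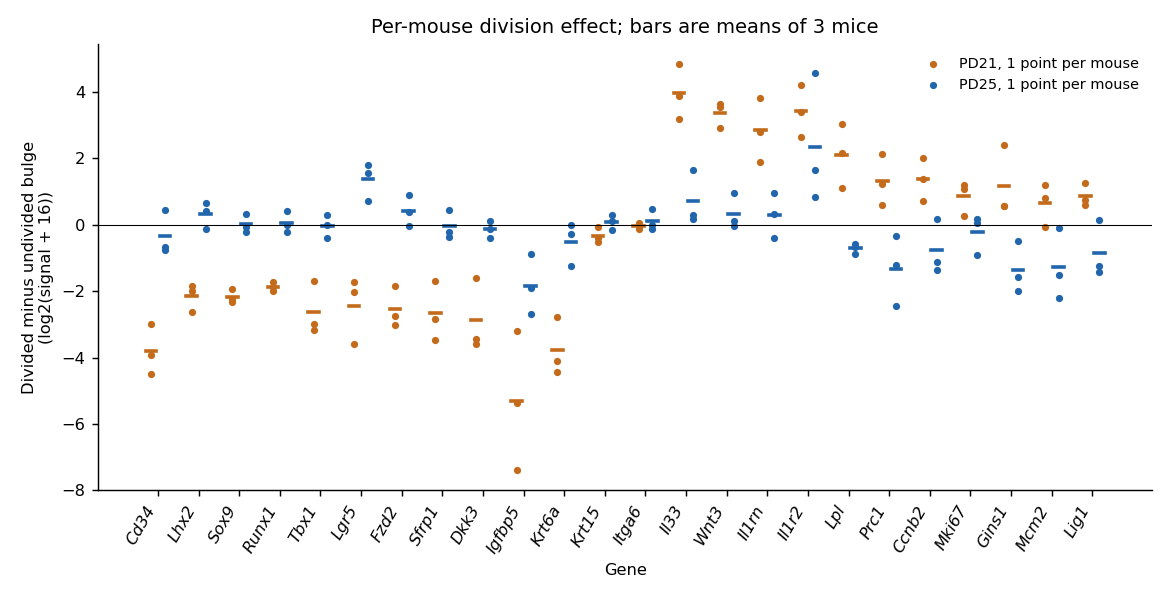
Division effect (log2 difference, divided minus undivided) of each mouse for the genes named on the axis, with 3 PD21 and 3 PD25 mice per gene and the mean of each age as a bar. For Cd34, Lhx2, Sox9, Dkk3 and Sfrp1 the 3 PD21 points lie below 0 and below the 3 PD25 points, while for Il33 the PD21 points lie above all PD25 points.

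Of the 15 largest increases among brighter genes whose 6 differences did not overlap, Gpc6, a cell-surface glypican, changed the most, by 4.75 ± 0.94 (SE, adjusted p = 0.00733). At PD21, undivided cells had levels of 10.08, 9.29 and 10.41 and divided cells had 4.20, 6.48 and 8.43, and at PD25 the levels were 9.76, 9.73 and 7.17 and 10.01, 9.60 and 10.63. Its 4 probe sets gave changes from 0.81 to 4.75. Next came Igdcc4 (4.16), an immunoglobulin-type membrane protein, Scrg1 (4.0), and the collagen V chain gene Col5a2 (3.94). They also included the LIM protein gene Csrp2 (3.86), the adaptor gene Sorbs2 (3.78), the actin regulator gene Eps8 (3.63), the GTPase gene Rhoc (3.63) and the adhesion gene Kirrel (3.49). Kitl, the ligand of the KIT receptor on melanocytes, changed by 3.50 ± 0.74 (SE, adjusted p = 0.0119), with division effects of -5.81, -1.83 and -2.86 in the PD21 mice and -0.32, 0.64 and -0.32 in the PD25 mice. Without PD25 mouse 2 its adjusted p was 0.0511. The other 5 were the potassium channel gene Kcnc4 (3.79), the kinase gene Camk4 (3.66), the sulfotransferase genes Chst2 (3.66) and Chst11 (3.55) and the desaturase gene Fads1 (3.54). The probe sets of Kcnc4 gave changes from 0.83 to 3.79, those of Fads1 from 1.53 to 3.54 and those of Kirrel from 1.53 to 3.49.

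Among genes that fell, the interleukin 1 family gave Il33 and Il1rn, 2 of 9 tested against 1.16% of all genes, and 0 that rose. Il1rn encodes the interleukin 1 receptor antagonist. Its levels were 11.08, 11.04 and 10.96 in divided and 9.19, 8.24 and 7.14 in undivided PD21 cells, and 8.46, 9.05 and 8.51 and 8.85, 8.10 and 8.18 at PD25. The change was -2.54 ± 0.54 (SE, adjusted p = 0.012), and without PD21 mouse 3 the adjusted p was 0.0629. Il1r2, the decoy receptor, had a change of -1.07 ± 0.81 (SE, adjusted p = 0.547) and did not pass. Summed over the list, the signal was 10221 to 11571 in divided PD21 cells and 2292 to 4232 in the other 9 arrays.

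Of the 15 largest decreases chosen the same way, Dpp4, a membrane peptidase, changed by -3.24 ± 0.79 (SE, adjusted p = 0.028), with division effects of 3.94, 2.16 and 5.75 in the PD21 mice and 1.33, 1.12 and -0.32 in the PD25 mice. Arhgdib changed by -3.24 ± 0.53 (SE, adjusted p = 0.00203), with division effects of 4.36, 2.59 and 2.86 in the PD21 mice and 0.57, 0.68 and -1.15 in the PD25 mice. In both genes divided cells stood above undivided cells in all 3 PD21 mice. However, Dpp4 lost its call without PD21 mouse 1 or 3 or PD25 mouse 2 or 3 (adjusted p up to 0.144). The probe sets of Dpp4 gave changes from -3.24 to -0.88. The transporter gene Slc22a4 (-3.24), the phosphatase subunit gene Ppp2r2c (-3.05), the steroid dehydrogenase gene Akr1c18 (-2.95), the complement regulator gene Cd55 (-2.60) and the transglutaminase gene Tgm3 (-2.45) also fell. So did the clock-linked repressor gene Bhlhe40 (-2.75), the Polycomb gene Pcgf5 (-2.69) and 4930550C14Rik (-2.84). With 1 mouse left out, Tgm3 and 4930550C14Rik each passed in 1 of 6 fits (adjusted p up to 0.123 and 0.118), Akr1c18 in 2 (up to 0.123), and Bhlhe40 and Cd55 in 4 each (up to 0.0575 and 0.0792). Lpl, lipoprotein lipase, changed by -2.80 ± 0.47 (SE, adjusted p = 0.00248), and its sign was opposite in every mouse of the 2 ages, with division effects of 2.17, 1.09 and 3.02 in the PD21 mice and -0.89, -0.66 and -0.58 in the PD25 mice. In the sebaceous gland list 3 of 14 fell, against 1.16% of all genes, and 0 rose: Elovl6 (-1.71), Scd1 (-1.30) and Mgst1 (-1.54), of which the first pair make long and unsaturated fatty acids. Mgst1 passed in 1 of 6 fits with 1 mouse left out (adjusted p up to 0.197). The probe sets of Elovl6 disagreed, with changes from -2.41 to 0.10.

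**Figure D4:**
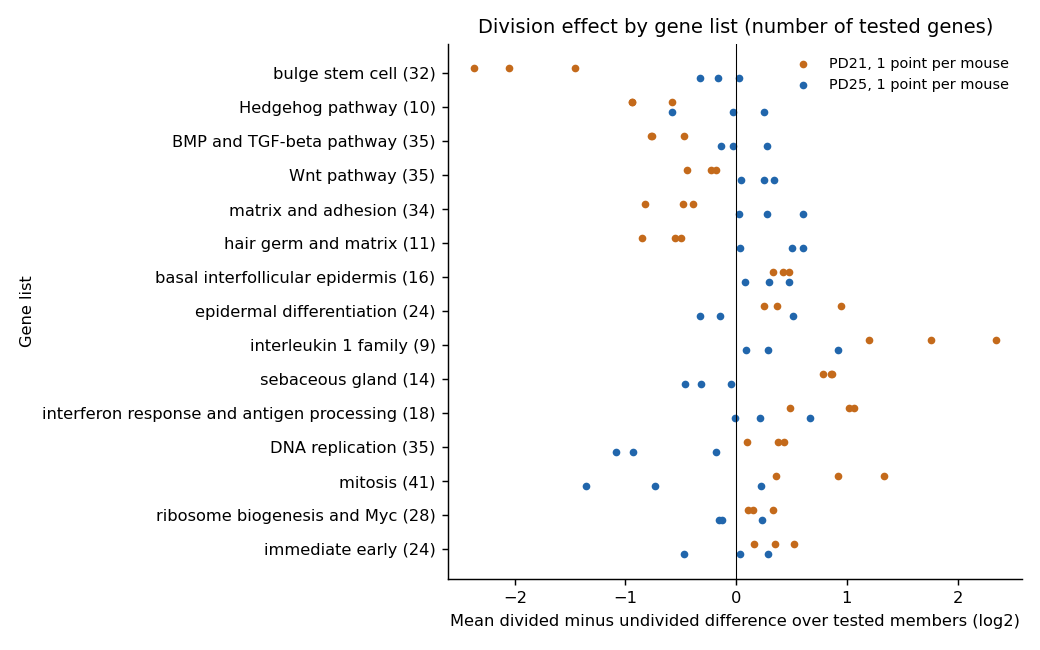
Mean division effect of each gene list (log2 difference, divided minus undivided, averaged over its tested members) in each of the 6 mice, with PD21 and PD25 mice in different colours. The bulge list lies between -2.37 and -1.46 in the PD21 mice and between -0.33 and 0.03 in the PD25 mice, and the mitosis list between 0.36 and 1.34 and between -1.36 and 0.22.

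Members of both cell cycle lists fell in division effect. In the mitosis list 12 of 41 tested genes fell and 0 rose, and in the DNA replication list 8 of 35 fell and 0 rose, against 1.16% of all genes that fell. The median changes were -1.54 and -1.01. The mean division effect of the mitosis list was 0.92, 0.36 and 1.34 in PD21 mice 1, 2 and 3 and -1.36, 0.22 and -0.73 in PD25 mice 1, 2 and 3. PD25 mouse 2 therefore stood apart from the other PD25 mice in sign, although still below every PD21 mouse. For the replication list the effects were 0.43, 0.10 and 0.38 at PD21 and -1.08, -0.18 and -0.94 at PD25.

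Prc1, which bundles the microtubules of the spindle midzone, changed by -2.65 ± 0.50 (SE, adjusted p = 0.00581). At PD21 its level in undivided cells was 8.43, 9.68 and 9.51, and in divided cells it was 10.57, 10.27 and 10.75. At PD25 undivided cells had levels of 10.76, 11.21 and 11.37, and divided cells had 8.31, 10.88 and 10.17. Divided cells had more Prc1 signal than undivided cells in every PD21 mouse and less in every PD25 mouse. The mitotic cyclin gene Ccnb2 (-2.13), the kinetochore gene Cenpf (-2.0), the spindle motor gene Kif11 (-1.98) and the proliferation marker Mki67 (-1.08) fell too, while Top2a, a topoisomerase of dividing cells, had a change of -1.41 (adjusted p = 0.0527). Of the replication genes, the GINS subunit gene Gins1 (-2.52), the DNA ligase gene Lig1 (-1.72) and the helicase subunit genes Mcm2 (-1.93) and Mcm5 (-1.58) fell. The Mcm2 levels of undivided and divided PD21 cells were 8.82, 10.42 and 9.34 and 10.02, 10.34 and 10.15, and they were 11.44, 10.90 and 10.37 and 9.23, 10.80 and 8.85 at PD25. The call of Mcm2 was lost without PD21 mouse 1 or 3 or PD25 mouse 1 or 3 (adjusted p up to 0.165). With 1 mouse left out, Ccnb2, Cenpf, Kif11, Mki67 and Mcm5 also passed in only 2 of 6 fits each (adjusted p up to 0.214). Lig1 passed in 3 and Gins1 in 4 (up to 0.0777 and 0.08), and Prc1 in all 6 (up to 0.046). Of 18 tested cell cycle inhibitor genes, 1 fell, the kinase inhibitor gene Cdkn2c (-1.85), and 1 rose, Gas1 (1.33), also in the Hedgehog list. Beside the 1.16% of all genes that fell and the 3.34% that rose, 1 call each way is read as no result. Cdkn2c passed in 2 of 6 fits with 1 mouse left out (adjusted p up to 0.196). The cyclin gene Ccnd1 and the inhibitor gene Cdkn1a had changes of 0.14 (adjusted p = 0.843) and -0.51 (adjusted p = 0.455).

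For these genes the levels of undivided cells differed between the ages. For all 20 of the called mitosis and replication genes, and for 40 of 41 and 34 of 35 tested members, the age difference was larger in undivided than in divided cells. Among all tested genes, the age difference was larger in divided cells for 58.4%. Its median over the 20 was 1.44 in undivided and -0.29 in divided cells, where among the other 106 lower genes the medians were 0.43 and -1.43. Per array, the mean level of the mitosis list was 8.49, 9.13 and 8.70 in undivided PD21 cells and 10.01, 10.24 and 10.35 in undivided PD25 cells, with no overlap. In divided cells it was 9.41, 9.49 and 10.04 at PD21 and 8.66, 10.47 and 9.62 at PD25, which overlap. In undivided cells, which had kept their label through the chase, the PD25 arrays also stood above the PD21 arrays within set A and within set B, but this difference lies between mice and was not tested. Of the 19 lower genes with their larger effect at PD25, several outside the rule for named genes, chosen after their values were seen, also act in cell division: Spc25 (1.08 at PD21 and -1.15 at PD25), Wee1 (0.76 at PD21 and -0.84 at PD25) and Cdca5 (0.79 at PD21 and -0.97 at PD25), given as division effects.

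The number of cell cycle genes called rests on single mice. The 12 mitosis genes were 1, 12 and 3 without PD21 mouse 1, 2 or 3 and 2, 19 and 2 without PD25 mouse 1, 2 or 3. The 8 replication genes were 1, 8 and 1 and 1, 11 and 0 in the same order. They were 2 and 0 without the mouse block, 17 and 13 within set A, and 0 and 0 within set B, while the median changes lay between -1.11 and -2.09 for mitosis and between -0.796 and -1.23 for replication over all settings tried.

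**Figure D5:**
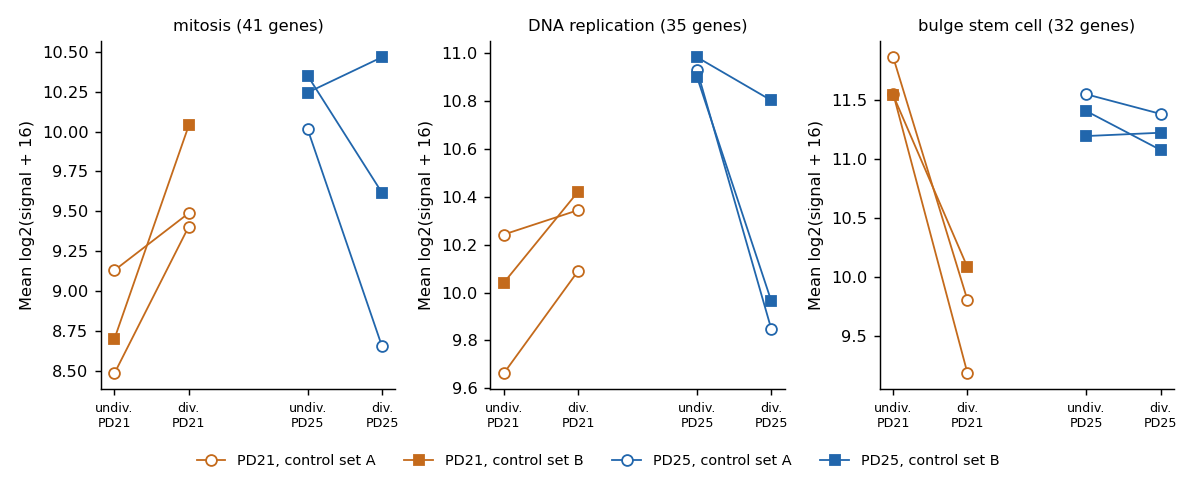
Mean level (log2(signal + 16)) of the bulge, mitosis and DNA replication lists on each of the 12 arrays, with the 2 arrays of a mouse joined. The mitosis list stands at 8.49 to 9.13 in undivided PD21 cells and at 10.01 to 10.35 in undivided PD25 cells, and the bulge list is lowest, at 9.19 to 10.08, in divided PD21 cells.

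Promoters of the called cell cycle genes were searched for the cell cycle genes homology region (CHR), an element of promoters active in late cell cycle, spelled TTTGAA on either strand. The search covered 250 bases before to 50 bases after the gene start in RefSeq annotation of GRCm38.p6, and it was added after the calls were known. Of 18 of the 20 genes with a promoter entry, 11 (61.1%) held the letters. They were held by 14% of 8780 tested genes with an entry, 33% of 100 lower genes and 10.3% of 273 higher genes. The 100 lower genes include these 18, so their share is no separate comparison. Of the replication genes searched, Fen1 and Mcm2 held the letters, while Cdt1, Lig1, Mcm3, Mcm5 and Prim1 did not. The other matches were in mitosis genes. Members of both lists that were not called were not counted apart. In 8 of the 11 the match lay within 50 bases of the gene start. Those 8 are shown with 12 bases on each side, read along the gene's own strand, with the matched letters in capitals (TTCAAA is the same element on the opposite strand). The Anln window holds the letters once more, in lower case just after the capitals.
Prc1 (chr7:80294434-80294463, + strand): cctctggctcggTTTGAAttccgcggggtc
Ccnb2 (chr9:70421533-70421562, - strand): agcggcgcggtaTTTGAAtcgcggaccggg
Cenpf (chr1:189688067-189688096, - strand): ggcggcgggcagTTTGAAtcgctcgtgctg
Kif11 (chr19:37376351-37376380, + strand): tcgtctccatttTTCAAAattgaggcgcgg
Anln (chr9:22389168-22389197, - strand): ggggcgctgaaaTTCAAAttttgaacggcc
Cdc20 (chr4:118437344-118437373, - strand): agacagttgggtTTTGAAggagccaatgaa
Ect2 (chr3:27153822-27153851, - strand): cgactggattttTTTGAAtcggaggcggca
Ube2c (chr2:164769888-164769917, + strand): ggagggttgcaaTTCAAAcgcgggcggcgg
Anln, Cdc20, Ect2 and Ube2c encode a cleavage furrow protein, an activator of the anaphase-promoting complex, a cytokinesis exchange factor and a ubiquitin-conjugating enzyme of mitotic exit, and their changes were -1.86, -1.76, -1.70 and -1.79. A match is a description of these letters and no evidence of binding. Called bulge genes were searched, on both strands, for CTTTGA (the TCF/LEF motif), TAATTA (LIM homeodomain), TGTGGT (Runx) and TGACTCA (AP-1). Of 16 with an entry, 0, 0, 1 (6.25%) and 0 held them, compared with 13.5%, 2.88%, 14.4% and 4.49% of all tested genes. The search had been planned for the named genes that passed, and the bulge set was not in that plan. Of 58 such named genes with an entry, 12.1%, 6.9%, 15.5% and 5.17% held the motifs, in the same order. CTTTGA and TTTGAA overlap where a promoter reads CTTTGAA.

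Set beside the 4.5% of all genes that changed, a count of 0 or 1 in lists of the following sizes says little about them. Of 16 basal epidermal, 18 interferon, 19 sterol synthesis, 20 glycolysis and 28 ribosome biogenesis genes, 0 passed, with median changes of -0.11, -0.42, -0.49, -0.19 and -0.09. Of 24 immediate early genes, which respond to stress and cell dissociation, 1 fell, Dusp1 (-1.35), and 0 rose. Of 24 epidermal differentiation genes 2 rose, Calml3 (2.07) and Sprr1a (1.37), and 2 fell, Tgm3 (-2.45) and Elovl4 (-1.49). Among all tested genes 3.34% rose and 1.16% fell. With 1 mouse left out, Sprr1a passed in 1 of 6 fits (adjusted p up to 0.118) and Elovl4 in 4 (up to 0.079). Of the 5 tested hair shaft and inner root sheath genes 0 passed, with a median change of 2.21. Ly6d, a surface protein of differentiating epithelium, had a change of -1.0 (adjusted p = 0.147).

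Markers of other cell types moved with some of these results, and their part in them was not tested. Of 12 tested dermal fibroblast and papilla genes, 4 rose, against 3.34% of all genes: Col6a2 (3.72), Col6a1 (3.03), Col5a1 (1.71) and Sparc (1.67), all collagen or matrix genes. With 1 mouse left out, Col6a2 and Col5a1 each passed in 2 of 6 fits (adjusted p up to 0.136 and 0.159). The summed signal of that list was 25158 to 39348 in undivided and 10298 to 14937 in divided PD21 cells, and 16348 to 18253 and 13840 to 21638 at PD25. The fibroblast gene Dcn stayed between 4.66 and 6.46 on all 12 arrays and did not pass the filter on dim probe sets. The sebaceous list summed to 11841 to 16142 and 21837 to 33525 in undivided and divided PD21 cells, and to 22743 to 25172 and 16890 to 19415 at PD25. Of 3 tested melanocyte genes 1 rose, Mitf (2.55), against 3.34% of all genes, and 1 call in a list of that size is read as no result. The summed signal of the melanocyte list was at most 3796, and Kit lay between 4.13 and 5.38 on every array. Of 11 immune, 3 Merkel and nerve, 2 muscle and 2 endothelial genes tested 0 passed, and 0 erythroid genes could be tested.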

How the data were processed

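Members and gene lists were chosen with earlier results of these data known. Per the submitters' processing notes and the series' design text, the authors amplified 5 ng of RNA per sorted fraction, hybridised it to Affymetrix MOE 430 2.0 arrays and made the deposited intensity values, which are linear signals per probe set, with GCOS (version not given). The 2% trimmed mean was equal on all arrays, so no further scaling was done.

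Of 45101 probe sets, 34945 had 1 gene symbol in the platform annotation, 34741 of these matched a RefSeq gene table by Entrez identifier, and 33588 lay on autosomes 1 to 19. Probe sets above the array median on 3 or more of the 12 arrays were kept, and each gene was read from its kept probe set of highest mean, for 10819 genes in all. The pseudocount was 16, which understates changes of dim genes.

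Titles give the age, the fraction and the mouse number, so the fractions of a mouse are paired. Deviations from group means correlated between the 2 arrays of a mouse at 0.173 to 0.395, above every other-mouse value. Centring on the mean of 3 mice lowers the other-mouse values, and both arrays of a mouse share a control set. The correlation is therefore no test of the pairing. The difference of each mouse was fitted with limma 3.58.1 in R 4.3.3 (lmFit, eBayes with a mean-variance trend; 4 residual and 11.8 prior degrees of freedom), with Benjamini-Hochberg adjustment at 0.05. With 3 mice an age, an exact permutation test of 1 gene cannot go below 0.1, so none is given. The number of arrays limits precision. The scripts were tested on simulated data.

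Named genes are, in each direction, the 15 with the largest change that passed, whose PD25 and PD21 differences did not overlap and whose highest group mean was above the median of such means. Added were up to 4 passing members per list (31 lists, 668 genes), and a set of markers. Gapdh, in that set, had no kept probe set. Alternatives were the block, pseudocount, filters, probe set rule, normalisation, spread model, array sets and leaving out each mouse. Alternatives for the list counts and the CHR motif were added after the data were seen.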

Additional observations from a re-analysis of the deposited data

Results flagged for a closer look

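The division effect differed between PD21 and PD25 mice, by the test of the difference itself, for 487 genes and for 82 of the genes named in the report. The changes below are PD25 minus PD21 division effects in log2 units, from the same 6 differences. They are ranked among these named genes only. Genes outside the rule for named genes also had large changes, such as Lce1a2 (-4.01) and Mia (4.20).

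The increases were, from the top, Gpc6 4.75, Igdcc4 4.16, Scrg1 4.0, Col5a2 3.94, Csrp2 3.86, Lgr5 3.80, Kcnc4 3.79, Sorbs2 3.78, Col6a2 3.72, Camk4 3.66, Chst2 3.66, Eps8 3.63, Rhoc 3.63 and Chst11 3.55. Next were Fads1 3.54, Kitl 3.50, Kirrel 3.49, Igfbp5 3.49, Cd34 3.47, Ltbp2 3.31, Krt6a 3.26, Col4a4 3.04, Col6a1 3.03, Trps1 3.02, Cspg4 2.98, Fzd2 2.95, Crabp1 2.84 and Dkk3 2.75. Then followed Fgf1 2.73, Sfrp1 2.62, Tbx1 2.59, Mitf 2.55, Lhx2 2.47, Hoxc13 2.47, Inhbb 2.43, Grem1 2.40, Itgb6 2.39, Fgfr1 2.35, Lamb1 2.34, Dlx2 2.30, Sox9 2.19 and Calml3 2.07. The smallest of the named increases were Runx1 1.92, Col5a1 1.71, Sparc 1.67, Boc 1.38, Gli3 1.38, Sprr1a 1.37, Gas1 1.33, Lfng 1.32, Egfr 0.98 and Sostdc1 0.92.

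The decreases were, from the top, Il33 -3.27, Dpp4 -3.24, Arhgdib -3.24, Slc22a4 -3.24, Ppp2r2c -3.05, Wnt3 -3.03, Akr1c18 -2.95, Bmpr1b -2.87, 4930550C14Rik -2.84, Lpl -2.80, Bhlhe40 -2.75, Pcgf5 -2.69, Prc1 -2.65, Cd55 -2.60 and Il1rn -2.54. The other named decreases were Gins1 -2.52, Tgm3 -2.45, Ccnb2 -2.13, Cenpf -2.0, Kif11 -1.98, Mcm2 -1.93, Cdkn2c -1.85, Lig1 -1.72, Elovl6 -1.71, Mcm5 -1.58, Mgst1 -1.54, Elovl4 -1.49, Dusp1 -1.35, Scd1 -1.30 and Mki67 -1.08. All 82 kept their sign within each of the 2 array sets, which hold parts of the differences used to call them. Where the PD25 and PD21 differences of a gene did not overlap, no split of the mice could turn its sign, so this is no check of the sets.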

How the results depend on the processing

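The direction of the 487 genes was kept under every setting in which they were tested, except 2 genes when kept probe sets were averaged. Most of these settings reuse the differences or group means on which the genes were called, so a kept direction says little. The count of genes was 191 without the replicate block, 0 without the spread trend (lowest adjusted p 0.0643) and 107 within set B, against 415 to 578 under the other settings that keep all mice and 652 within set A. Each set holds 3 mice, with 1 mouse of one age. Leaving out 1 mouse gave 221 to 457. Of the named genes, 82 passed in the report, 53 without the block, 0 without the trend, 31 within set B, and 50 to 72 without 1 mouse, and 46 of the 82 passed whichever mouse was left out. The bulge list's 21 became 13, 0 and 6 without the block, without the trend and within set B, and 15 to 21 without 1 mouse. The mitosis list's 12 became 2 without the block, 0 without the trend, 7 with averaged probe sets or array weights, 22 with the array set as a term, 0 within set B, and 1 to 19 without 1 mouse. The replication list's 8 became 0, 0, 2, 2, 12 and 0 in that order, 13 within set A, and 0 to 11 without 1 mouse. The cause was not tested. Among genes that did not pass, the sign turned for Il1r2 within set A (1.14), for Ccnd1 (-0.041), Cdkn1a (0.068) and Lrp4 (0.28) within set B, for Ccnd1 without PD25 mouse 2 (-0.0041; up to 0.323 without another mouse) and for Itga6 without PD25 mouse 3 (-0.039; up to 0.263 without another mouse). Dim probe sets lie near background and carry the least certain changes.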
